A study of Mus musculus with 12 samples.

Results

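The genes described here encode the ATP-dependent chromatin remodelling complexes of mouse liver. Protein-coding genes were taken by symbol (the Smarc, Arid, Chd, Mta, Mbd, Gatad2, Baz, Ino80, Dpf and Ruvbl families with Pbrm1, Phf10, Bptf, Hells, Srcap, Ep400, Atrx, Actl6, Rbbp4 and Rbbp7). The pattern took 69 symbols, and 65 of them reached at least 0.5 CPM (counts scaled to library size) in at least 3 of the 12 libraries, out of 14052 genes of the series at that minimum. Actl6b, Arid3c, Mbd3l1 and Mbd3l2 did not reach it. Of the 65 genes, 18 belong to SWI/SNF, 12 to NuRD, 7 are other CHD remodellers, 7 belong to ISWI, 9 to INO80, SRCAP or p400, and 4 are other Snf2 ATPases. The 8 remaining genes (Arid3a, Arid3b, Arid4a, Arid4b, Arid5a, Arid5b, Mbd1 and Mbd6) share a DNA-binding domain name with the others but are not subunits of a remodeller, and they were described apart. The minimum did not use the groups, but Chd5 and Dpf1 reached it in NICD1/Akt libraries alone, so for these 2 genes a difference had to follow and their calls support nothing.

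RNA-seq had been done on livers of C57BL/6J mice in 4 groups of 3 libraries. The NICD1/Akt groups had received plasmids for the intracellular domain of Notch1 (NICD1) and for myristoylated AKT (myr-AKT), each at 10 µg per mouse, with the Sleeping Beauty transposase by hydrodynamic tail vein injection (HTVI), and cholangiocarcinoma (CCA) tumors were excised 2 or 3 weeks later (called NICD1/Akt livers below). HTVI is known to deliver DNA mainly to hepatocytes. Control livers, of genotype WT, came from healthy mice, which the growth protocol gives as not injected, although their time label also reads 2 or 3 weeks post-HTVI. Injection and transgenes therefore cannot be told apart. The question put to each stage was how tumor-bearing liver differs from healthy liver.

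ATP-dependent remodellers use a Snf2-type ATPase to slide, evict or exchange nucleosomes. SWI/SNF complexes open chromatin at enhancers and promoters, NuRD couples remodelling to histone deacetylation, ISWI complexes space nucleosomes, and INO80, SRCAP and p400 exchange the histone variant H2A.Z. Many subunits are encoded by paralogs that take the same place in a complex, so the choice of paralog changes the makeup of the complex. In cholangiocarcinoma, SWI/SNF genes such as ARID1A and PBRM1 are among the genes known to be mutated.

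The libraries held between 13136892 and 19594839 counts. Levels below are CPM scaled by TMM factors over all 12 libraries, and fold changes are log2 values with a standard error (SE) from edgeR's quasi-likelihood test with Benjamini-Hochberg adjustment over all genes tested. The levels and the fold changes rest on different sets of libraries, and the all-gene median of the 2 scalings differed by -0.10 at 3 weeks. At that stage, 7 of 7 biliary markers tested were higher and 7 of 8 hepatocyte markers lower in NICD1/Akt livers. The library labelled control, 2 weeks, replicate 32 had Notch1 at 105 CPM, Akt1 at 376 CPM and Spp1 at 1848 CPM before TMM scaling, against 42.02 and 44.9, 77.8 and 75.2, and 48.4 and 44.8 CPM in the other controls of 2 weeks, so it went against its label. Ddx3y, on the Y chromosome, had between 0 and 0.366 CPM in 5 of the 6 libraries of 2 weeks, at 56.3 CPM in replicate 32 and at 70.9 to 99.2 CPM in all 6 libraries of 3 weeks, and stage and sex cannot be told apart. The methods name male mice for the injected animals.

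At 3 weeks 26 of the 63 remodeller genes tested were higher in NICD1/Akt than in control livers, 14 were lower, and 23 did not pass the test. Over all 13408 genes tested, 38.9% were called higher and 33.1% lower. These shares are the background of the counts by complex and by list from this fit given below. The median log2 fold change of the 63 genes was 0.17, against 0.06 over all genes tested. Dpf3 and Smarca1 had too few counts to be tested, and the 26 include Chd5 and Dpf1, whose calls follow from the minimum. The split depended on the scaling: 52 were higher and 4 lower with library size alone, 33 higher and 9 lower with upper quartile factors, and 18 higher and 18 lower when all 12 libraries entered 1 fit. Of all genes tested, library size alone called 67.7% higher and 9.60% lower, upper quartile factors 44.2% and 26.3%, and the fit of 12 libraries 32.8% and 34.2%. Under those settings the all-gene median shifted by 0.70, 0.16 and -0.10 (log2), and directions below are relative to TMM over the 6 libraries of 3 weeks. With library size alone, 10 of the 14 lower genes (Arid3b, Arid4a, Arid4b, Ino80, Ruvbl1, Smarca5, Mbd3, Mta2, Rbbp4 and Chd7) had log2 fold changes above 0, from 0.05 to 0.40, while Mbd1, Arid5a, Arid5b and Chd1 were called lower there too.

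**Figure D1:**
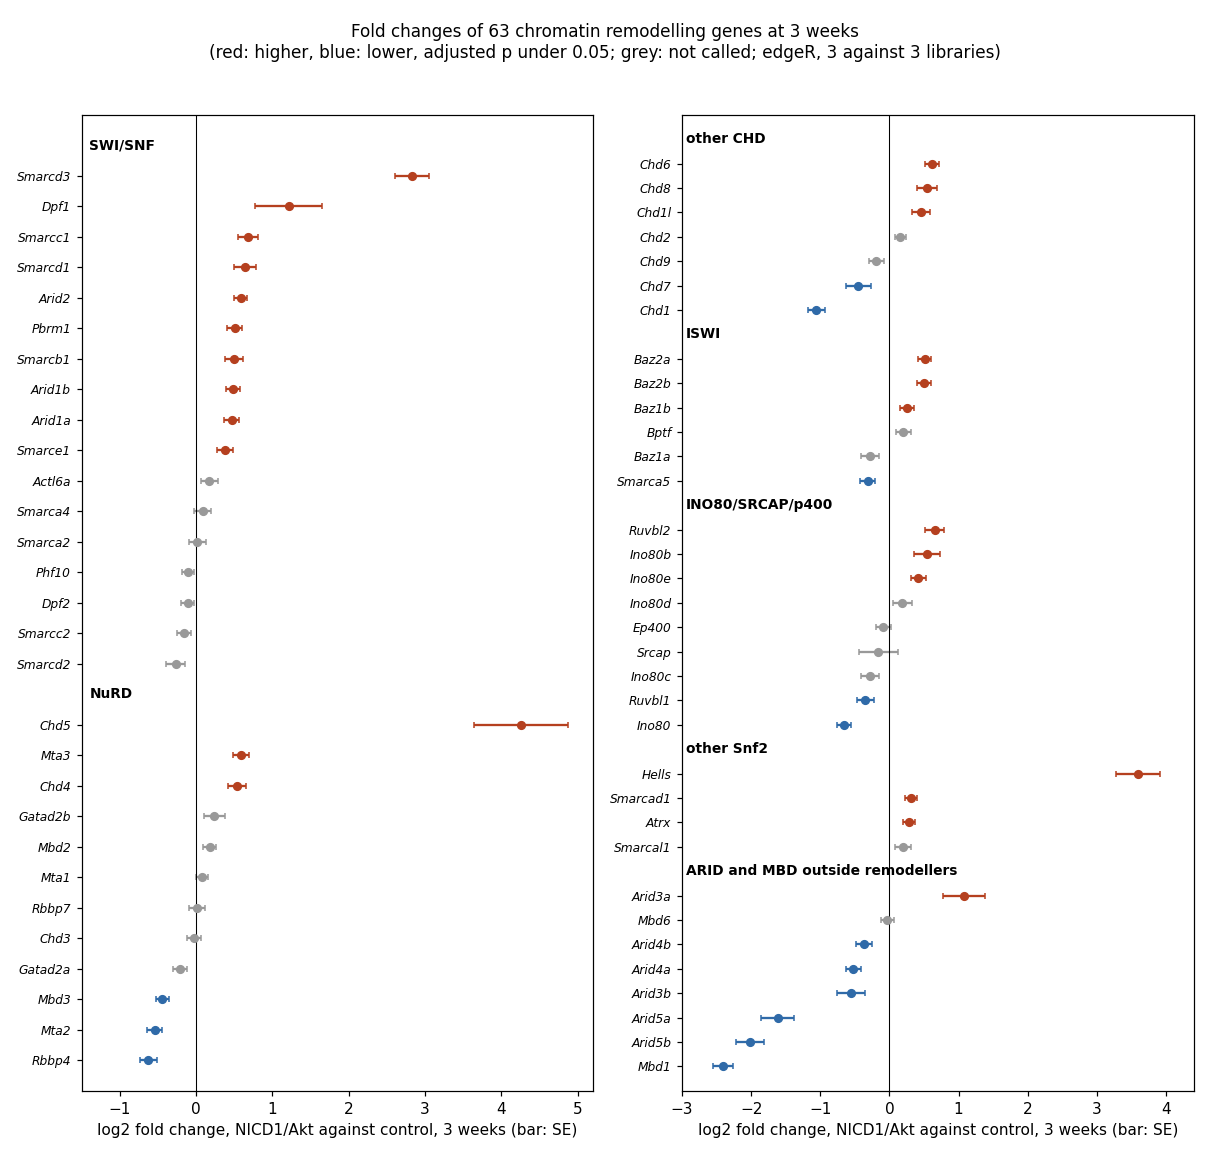
Log2 fold change (x axis) of each of the 63 genes tested at 3 weeks, NICD1/Akt against control livers, by complex (rows), with the SE as bars and 3 libraries a group. Red points were called higher and blue points lower at adjusted p under 0.05. SWI/SNF holds 10 red points and no blue point, while 6 of the 8 ARID and MBD genes outside remodellers are blue.

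Subunits of SWI/SNF were called in 1 direction. Of 17 genes tested, 10 were higher and 0 lower at 3 weeks by edgeR (10 and 0 at an unadjusted p). Dpf1 is among the 10, and its call follows from the count minimum. The median log2 fold change of the 17 genes was 0.47. DESeq2 called 9 higher and 0 lower. The fit of all 12 libraries called 8 higher and 3 lower, and library size alone 17 higher and 0 lower.

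The largest change of the complex was that of Smarcd3, which encodes BAF60C, a subunit that links SWI/SNF to tissue-specific transcription factors. Its level was 0.776, 0.871 and 1.08 CPM in control livers and 6.48, 5.85 and 5.68 CPM in the NICD1/Akt livers of 3 weeks, a log2 fold change of 2.83 ± 0.22 (adjusted p = 1.3e-05). The groups did not overlap. At 2 weeks the NICD1/Akt library of replicate 35, with 5.90 CPM, was in the range of the late NICD1/Akt livers, while replicates 33 and 34 had 2.06 and 2.66 CPM. Among the controls of 2 weeks, replicate 32 was highest at 3.17 CPM. Of the exon length of Smarcd3, 48.2% is shared with Chpf2 on the opposite strand, which was at 17.9 to 25.8 CPM in the controls and 23.4 to 28.3 CPM in the NICD1/Akt livers of 3 weeks and did not pass the test (adjusted p = 0.082). Its part in the counts of Smarcd3 was not tested.

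The scaffold subunit BAF155, encoded by Smarcc1, and the catalytic core subunits moved by smaller amounts. Smarcc1 was at 32.9, 46.5 and 34.3 CPM in control livers and 54.6, 57.6 and 54.9 CPM in the NICD1/Akt livers of 3 weeks, a log2 fold change of 0.67 ± 0.13 (adjusted p = 0.0018). All 3 NICD1/Akt libraries lay above every control, of which replicate 11 was the highest. Its paralog Smarcc2, which encodes BAF170, was at 137 to 154 CPM in the controls and 110.1 to 122 CPM in the NICD1/Akt livers, with a log2 fold change of -0.16 ± 0.10 that did not pass the test (adjusted p = 0.17). The core subunits Smarcb1 (SNF5) and Smarce1 (BAF57) rose by 0.49 ± 0.12 and 0.38 ± 0.10 on the log2 scale (adjusted p = 0.0055 and 0.0094). With all 6 controls Smarcb1 was still called (0.33 ± 0.11, adjusted p = 0.036) and Smarce1 was not (0.21 ± 0.10, adjusted p = 0.10). Against the early controls neither was called (0.28 ± 0.15 and 0.16 ± 0.15, adjusted p = 0.13 and 0.38).

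Neither ATPase of the complex passed the test. Smarca4 (BRG1) was at 100.1, 88.4 and 84.9 CPM in control livers and 86.8, 99.9 and 80.8 CPM in the NICD1/Akt livers of 3 weeks (log2 fold change 0.09 ± 0.11, adjusted p = 0.5). For Smarca2 (BRM) the values were 121, 135 and 118 and 122, 101 and 125 CPM (log2 fold change 0.01 ± 0.11, adjusted p = 0.91). In both genes the groups overlapped.

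Subunits that define the 2 classes of SWI/SNF were called higher in both. ARID1A and ARID1B are the alternative DNA-binding subunits of canonical BAF, and ARID2, PBRM1 and PHF10 belong to PBAF. Arid2 was at 33.6, 34.04 and 33.7 CPM in control livers and 47.02, 49.5 and 43.6 CPM in the NICD1/Akt livers of 3 weeks (log2 fold change 0.59 ± 0.08, adjusted p = 0.00032). The groups did not overlap. Arid1a was at 94.2, 84.1 and 101 and 117, 121 and 117 CPM (log2 fold change 0.47 ± 0.10, adjusted p = 0.0026). Arid1b changed by 0.48 ± 0.09 and Pbrm1, whose product carries a row of bromodomains, by 0.50 ± 0.10 on the log2 scale (adjusted p = 0.0016 and 0.0021). Phf10 and Dpf2, the PHD finger subunits of PBAF and of canonical BAF, were at -0.11 ± 0.08 and -0.11 ± 0.09 and did not pass the test. Dpf1 had 10 counts in the 3 controls together and 46 in the 3 NICD1/Akt livers of 3 weeks, and its call (adjusted p = 0.035) was lost when any of 5 libraries was left out. Dpf3 had 19 and 9 counts. Actl6a, an actin-related subunit shared with INO80, was at 0.17 ± 0.11 (adjusted p = 0.19).

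Against the early in place of the late controls, a comparison added after the data were seen and in which stage and sex differ, 8 SWI/SNF genes were higher and 2 lower, and 5 were higher and 2 lower of 18 without replicate 32. Of all genes 27.0% were higher and 28.0% lower in the first of these fits, and 27.9% and 28.5% in the second, so without replicate 32 the share of SWI/SNF genes called higher was near that of all genes. Arid2, Arid1a, Arid1b, Smarcc1 and Smarcd3 were higher in each of those fits, with log2 fold changes of 0.61, 0.65, 0.48, 0.62 and 1.66 against all 3 early controls (adjusted p = 0.00083, 0.00093, 0.007, 0.0048 and 0.0088). Smarcd2 and Dpf3 were lower (-0.77 ± 0.15 and -3.57 ± 0.93, adjusted p = 0.0019 and 0.0084).

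The ratio of 2 paralogs within a library does not depend on how libraries are scaled. It was computed as the log2 ratio of counts, and 14 of 17 pairs had at least 10 counts of each gene in every library at both stages. An exact two-sided permutation test of 3 against 3 libraries cannot go below p = 0.10, and adjusted over 14 pairs its smallest value at 3 weeks was 0.14, so ratios are given as values.

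The pair Smarcc1/Smarcc2 had log2 ratios of -2.05, -1.72 and -2.02 in the controls and -1.16, -0.94 and -1.15 in the NICD1/Akt livers of 3 weeks. The 3 NICD1/Akt libraries lay above all 3 controls, by a mean of 0.85. At 2 weeks the groups overlapped, with means of -1.95 ± 0.29 and -1.60 ± 0.46 (SD, n = 3, as for the other ratios).

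Within the BAF60 family, Smarcd2 outnumbered Smarcd1 in every library, and less so in NICD1/Akt livers. The log2 ratios of Smarcd2 to Smarcd1 at 3 weeks were 2.52, 2.78 and 2.11 in the controls and 1.78, 1.15 and 1.73 in the NICD1/Akt livers. At 2 weeks they were 2.64, 2.90 and 2.699 and 2.39, 2.32 and 1.59, and the groups did not overlap at either stage. Smarcd1 rose by 0.64 ± 0.15 on the log2 scale at 3 weeks (adjusted p = 0.0041), and Smarcd2 changed by -0.27 ± 0.12 without passing the test (adjusted p = 0.081). For the ATPase pair Smarca4/Smarca2 the mean log2 ratios were -0.45 ± 0.17 in controls and -0.38 ± 0.32 in NICD1/Akt livers at 3 weeks, with overlap, and -0.59 ± 0.15 and -0.13 ± 0.21 at 2 weeks, without it. Arid1b/Arid1a differed by 0.01 at 3 weeks, within the spread of either group.

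**Figure D2:**
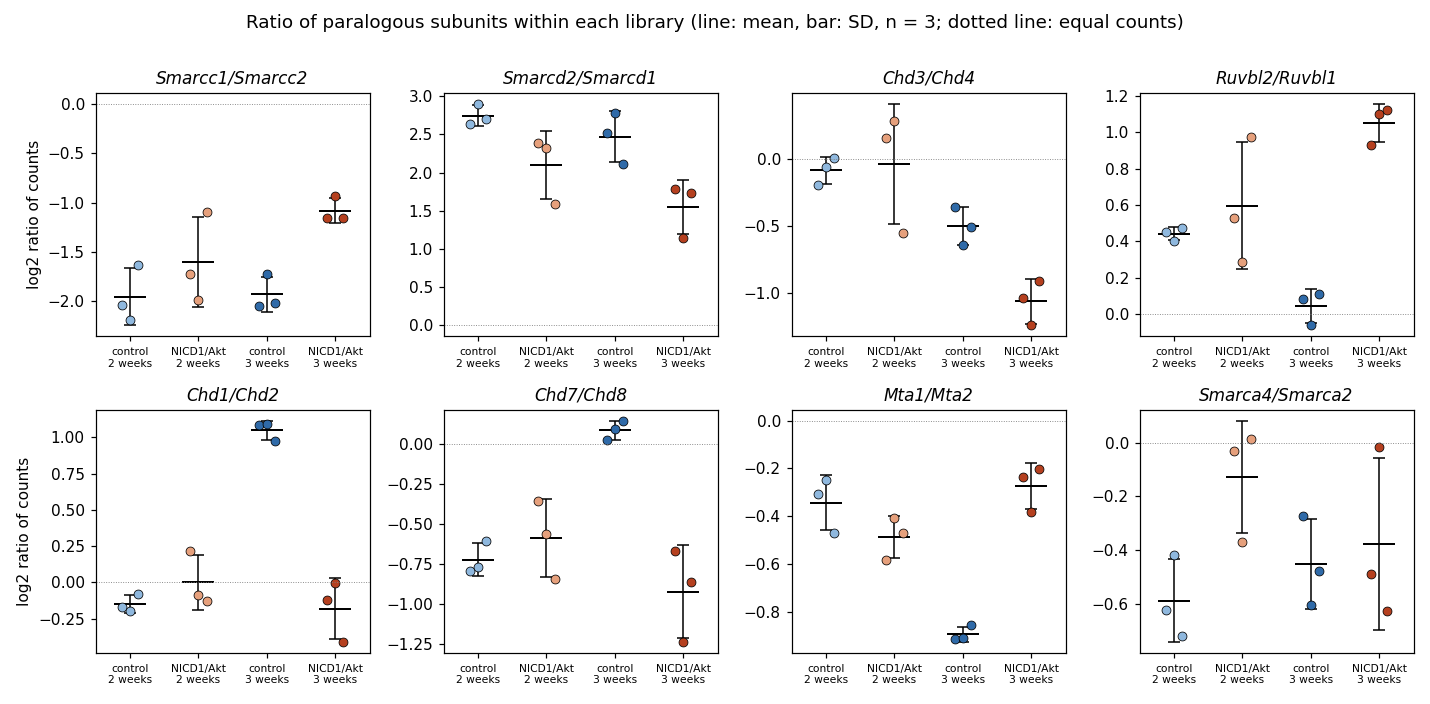
Log2 ratio of the counts of 2 paralogs (y axis) in each library of the 4 groups (x axis), with the mean as a line and the SD as a bar (n = 3). Smarcc1/Smarcc2 and Ruvbl2/Ruvbl1 are highest in the NICD1/Akt livers of 3 weeks, and Chd1/Chd2, Chd7/Chd8 and Mta1/Mta2 stand apart in the controls of 3 weeks.

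Hells had the largest change among the ATPases with more than a few counts in each group. It encodes LSH, a Snf2 ATPase that works with CDCA7 to bring DNA methylation to repeats and is expressed most in proliferating cells. Its level was 0.949, 1.39 and 2.67 CPM in control livers and 15.8, 23.6 and 16.9 CPM in the NICD1/Akt livers of 3 weeks, a log2 fold change of 3.60 ± 0.32 (adjusted p = 2.3e-05). Every NICD1/Akt library of 3 weeks lay above all 9 other libraries. At 2 weeks the controls had 4.13, 2.09 and 5.18 CPM and the NICD1/Akt livers 5.31, 4.22 and 10.46 CPM, with overlap, and replicate 35 was the highest. The change at 3 weeks exceeded that at 2 weeks by 2.65 ± 0.64 (adjusted p = 0.015). Against the early controls the late NICD1/Akt livers were higher by 2.30 ± 0.44 (adjusted p = 0.0019).

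The partners of LSH moved with it. Cdca7 and Cdca7l were higher at 3 weeks by 2.32 ± 0.24 and 5.43 ± 0.27 on the log2 scale (adjusted p = 5.3e-05 and 1.1e-06), from 1.31 to 2.33 and 0.167 to 0.259 CPM to 7.08 to 9.32 and 7.61 to 8.54 CPM. The late controls of Cdca7l rest on few counts and were lower than the early controls (-2.70 ± 0.84, adjusted p = 0.027). Between late and early NICD1/Akt livers Cdca7l did not pass the test (0.96 ± 0.55, adjusted p = 0.20). Cdca7 passed neither of these 2 tests (-0.30 ± 0.36 and 0.77 ± 0.32, adjusted p = 0.54 and 0.094). The part of the late controls in the rise of Cdca7l was not tested. Of 10 cell cycle markers (Mki67, Top2a and others), 9 were higher at 3 weeks and 0 lower. Their summed level was 52.7 to 72.3 CPM in the controls and 392.9 to 545.0 CPM in the NICD1/Akt livers of 3 weeks, 77.7 to 173 CPM in the controls and 133 to 432 CPM in the NICD1/Akt livers of 2 weeks. Fewer cells of a type and less RNA per cell cannot be told apart in these bulk libraries, and the part of proliferating cells in the change of Hells was not tested.

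Promoters (250 bases before to 50 after the start, RefSeq, GRCm38.p6) were found for 51 of the 65 genes. The E2F motif TTTCCCGC, searched on both strands, stood in 1.11% of all 27025 promoters and in those of Hells and Smarcd1 among the 51. Both genes were higher at 3 weeks, and the motif is shown in capitals in a window of 30 bases on the plus strand, with its first base 62 bases before the start of Hells and 131 before that of Smarcd1.
Hells, chr19:38930917-38930946: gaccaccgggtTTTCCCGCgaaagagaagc
Smarcd1, chr15:99702145-99702174: gtcagcacgccTTTCCCGCtagtcgccccc
The other motifs searched, also on both strands, were TTTGGCGC (0.537% of all promoters, in 0 of the 51), the CRE motif TGACGTCA (1.88%, in Baz2b) and the EGR motif GCGTGGGCG (0.625%, in Ino80). A match describes these letters and not a bound site.

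The other Snf2 ATPases changed little. Atrx, which deposits the histone variant H3.3 with Daxx, rose by 0.28 ± 0.09 on the log2 scale at 3 weeks, and Smarcad1, which keeps heterochromatin through replication, by 0.32 ± 0.09 (adjusted p = 0.02 and 0.012). Smarcad1 was at 22.4, 22.3 and 22.7 CPM in the NICD1/Akt livers, above all 9 other libraries (16.1 to 16.6, 16.4 to 19.5 and 18.7 to 20.5 CPM in the other groups). Smarcal1, which remodels stalled replication forks, did not pass the test (0.20 ± 0.12, adjusted p = 0.16).

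In NuRD 3 of 12 genes were higher at 3 weeks and 3 were lower, with a median log2 fold change of 0.04. CHD3, CHD4 and CHD5 are its alternative ATPases. Chd4, the most abundant, was at 119.7, 144 and 119 CPM in control livers and 176, 179 and 154 CPM in the NICD1/Akt livers of 3 weeks (log2 fold change 0.53 ± 0.12, adjusted p = 0.0031), and the groups did not overlap. With all 6 controls its log2 fold change was 0.31 ± 0.13 (adjusted p = 0.066), past no threshold. Chd3 was at 83.6 to 93.5 and 75.9 to 85.8 CPM at 3 weeks (-0.03 ± 0.09, adjusted p = 0.82) and at 145, 136 and 130.1 CPM in control livers and 169, 167 and 103 CPM in the NICD1/Akt livers of 2 weeks. It was lower in late than in early livers, with log2 fold changes of -0.61 ± 0.17 between controls and -0.85 ± 0.17 between NICD1/Akt livers (adjusted p = 0.015 and 0.0055).

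The log2 ratio of Chd3 to Chd4 was -0.36, -0.64 and -0.51 in controls and -1.04, -1.24 and -0.91 in NICD1/Akt livers at 3 weeks, without overlap. At 2 weeks its means were -0.08 ± 0.10 and -0.04 ± 0.45, and replicate 35 at -0.55 stood apart from the other NICD1/Akt livers. Chd5, known mainly from neurons and testis, was near the limit of counting. It had 0, 1 and 1 counts in the controls and 23, 33 and 28 counts in the NICD1/Akt livers of 3 weeks, a ratio of scaled counts of 19.6 (95% exact interval 5.27 to 165, counting error only). It passed the count minimum through the NICD1/Akt livers, so a difference had to follow. At 2 weeks replicate 35 had 19 counts and the other 5 libraries 0 to 2.

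The MTA proteins are the scaffold on which NuRD binds its deacetylases. Mta2 was at 122.7, 122 and 119 CPM in the controls of 3 weeks and 74.9, 83.03 and 71.7 CPM in the NICD1/Akt livers (-0.55 ± 0.09, adjusted p = 0.00079), and at 62.8 to 66.9 and 68.8 to 71.3 CPM at 2 weeks. The late controls alone were high. Mta3 went the opposite way: it was at 10.6, 11.8 and 11.1 CPM in the late controls and 15.9, 15.4 and 15.1 CPM in the late NICD1/Akt livers (0.59 ± 0.11, adjusted p = 0.0012), with 16.6 to 18.2 and 13.8 to 16.4 CPM in the groups of 2 weeks. Here the late controls were low. Mta1 was at 64.9 to 65.8 and 62.3 to 63.7 CPM at 3 weeks (0.07 ± 0.08, adjusted p = 0.4) and at 47.04 to 54.04 and 47.6 to 52.3 CPM at 2 weeks.

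The histone chaperone Rbbp4, shared with Polycomb and chromatin assembly complexes, was at 242, 203 and 243 CPM in control livers and 139, 127 and 144 CPM in the NICD1/Akt livers of 3 weeks (-0.63 ± 0.11, adjusted p = 0.0011). Its paralog Rbbp7 did not pass the test (0.01 ± 0.10, adjusted p = 0.92). The log2 ratio of Rbbp7 to Rbbp4 was higher in NICD1/Akt livers of 3 weeks, at -0.86 ± 0.22 against -1.49 ± 0.17, while both groups of 2 weeks had means near the former (-0.79 ± 0.26 and -0.61 ± 0.07). Mbd3 and Mbd2 assemble distinct NuRD complexes, and MBD2 reads methylated DNA. Mbd3 was at 82.8, 74.4 and 76.02 CPM in controls and 52.7, 50.999 and 54.3 CPM in NICD1/Akt livers of 3 weeks (-0.44 ± 0.08, adjusted p = 0.0016), lower also with all 6 controls (-0.42 ± 0.12, adjusted p = 0.015). Against the early controls alone Mbd3 was not called (-0.27 ± 0.11, adjusted p = 0.067, and -0.23 ± 0.12, adjusted p = 0.15, without replicate 32). Mbd2 changed by 0.18 ± 0.09 without passing the test, and the log2 ratio of Mbd3 to Mbd2 turned from 0.49 ± 0.15 in controls to -0.13 ± 0.11 in NICD1/Akt livers. The linker subunits Gatad2a and Gatad2b were not called at 3 weeks (-0.22 ± 0.09 and 0.24 ± 0.14), yet their log2 ratio, Gatad2b to Gatad2a, was higher in NICD1/Akt livers at both stages, by 0.47 at 3 weeks and 0.34 at 2 weeks, with no overlap.

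Among the other CHD remodellers 3 of 7 were higher at 3 weeks (Chd6, Chd8 and Chd1l), 2 were lower (Chd1 and Chd7), and Chd2 and Chd9 did not pass the test. CHD1 binds the promoter mark H3K4me3 and moves with elongating RNA polymerase II. Chd1 was at 119, 118 and 115 CPM in the controls of 3 weeks and 55.4, 57.6 and 42.2 CPM in the NICD1/Akt livers, a log2 fold change of -1.06 ± 0.13 (adjusted p = 0.00011). At 2 weeks it was at 48.9, 46.5 and 41.3 CPM in control livers and 56.6, 53.2 and 37.6 CPM in the NICD1/Akt livers. The late controls stood above all 9 other libraries, and the late NICD1/Akt livers overlapped both early groups.

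Chd2, the nearest paralog of Chd1, did not pass the test at 3 weeks (55.2 to 58.3 and 56.1 to 60.4 CPM, 0.16 ± 0.08, adjusted p = 0.11). The log2 ratio of Chd1 to Chd2 was 1.08, 1.09 and 0.97 in the late controls, -0.12, -0.01 and -0.41 in the late NICD1/Akt livers, -0.17, -0.20 and -0.08 in the early controls and 0.22, -0.09 and -0.13 in the early NICD1/Akt livers. The late controls lay above the other 9 libraries, which were on either side of 0. CHD7 and CHD8 act at enhancers and on CTCF and beta-catenin targets, and their genes moved apart at 3 weeks. Chd8 rose by 0.54 ± 0.14 and Chd7 fell by 0.45 (SE 0.18) on the log2 scale (adjusted p = 0.0082 and 0.049). With all 6 controls neither was called (0.33 ± 0.14 and -0.29 ± 0.24, adjusted p = 0.070 and 0.34). Their log2 ratio, Chd7 to Chd8, was 0.02, 0.09 and 0.14 in controls and -0.67, -1.24 and -0.86 in NICD1/Akt livers at 3 weeks. At 2 weeks its means were -0.72 ± 0.10 in controls and -0.59 ± 0.24 in NICD1/Akt livers, with overlap. Here too the late controls lay above the other 9 libraries.

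Chd6 was, beside Chd5, the CHD gene whose late NICD1/Akt livers lay above all 9 other libraries. It was at 44.1, 47.4 and 51.6 CPM there, 32.9, 37.3 and 30.9 CPM in the late controls (0.62 ± 0.10, adjusted p = 0.00072) and 25.2 to 30.7 and 30.6 to 35.9 CPM in the early groups. Chd1l (ALC1), which remodels nucleosomes at sites of poly(ADP-ribose) in DNA repair, was at 8.88, 10.4 and 9.17 CPM in control livers and 11.74, 12.998 and 11.2 CPM in the NICD1/Akt livers of 3 weeks (0.45 ± 0.13, adjusted p = 0.012). Its levels at 2 weeks were higher than either, 16.2 to 26.4 CPM in controls and 17.7 to 23.05 CPM in NICD1/Akt livers. Against the early controls the late NICD1/Akt livers were lower, with -0.79 ± 0.18 (adjusted p = 0.0042), and with all 6 controls the value was -0.34 ± 0.36 (adjusted p = 0.45), so its direction depended on the controls used. Chd9 was at -0.19 ± 0.11 (adjusted p = 0.14).

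In ISWI 3 of 6 genes tested were higher at 3 weeks and 1 was lower. The ATPase SNF2H, encoded by Smarca5, slides nucleosomes in complexes named by their BAZ partner. Smarca5 was at 65.8, 65.1 and 57.3 CPM in the late controls and 44.2, 52.9 and 42.1 CPM in the late NICD1/Akt livers (-0.32 ± 0.11, adjusted p = 0.031), against 34.3, 32.9 and 32.5 and 45.8, 38.2 and 41.7 CPM at 2 weeks. Late controls were highest and early controls lowest, and the late NICD1/Akt livers were higher than the early controls by 0.48 ± 0.11 (adjusted p = 0.0045). Baz1a (ACF1), its partner in chromatin assembly, had the same order: 10.7 to 14.97 CPM in early controls, 17.98 to 21.2 CPM in early NICD1/Akt livers, 22.6 to 30.97 CPM in late NICD1/Akt livers and 32.03 to 36.1 CPM in late controls. At 3 weeks Baz1a did not pass the test (-0.29 ± 0.13, adjusted p = 0.076).

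The bromodomain genes Baz2a, whose product silences ribosomal DNA, and Baz2b rose together at 3 weeks. Baz2a was at 55.03, 63.2 and 57.8 CPM in controls and 81.2, 73.8 and 75.8 CPM in NICD1/Akt livers (0.51 ± 0.09, adjusted p = 0.0011), and Baz2b at 21.05, 25.2 and 24.8 and 31.3, 30.6 and 30.4 CPM (0.50 ± 0.10, adjusted p = 0.0018). Their log2 ratio differed by -0.01, with overlap. Baz1b (WSTF) changed by 0.25 ± 0.10 (adjusted p = 0.0497), a call lost without any of 4 libraries, and Bptf, the large subunit of NURF, by 0.20 ± 0.11 without passing the test (adjusted p = 0.12). Smarca1 (SNF2L), the other ISWI ATPase, was at 0.909 CPM or less in every library.

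Among the INO80, SRCAP and p400 genes 3 of 9 were higher at 3 weeks and 2 were lower. Ino80 was at 48.5, 44.3 and 46.8 CPM in the late controls and 30.1, 27.2 and 24.5 CPM in the late NICD1/Akt livers (-0.65 ± 0.10, adjusted p = 0.00046), and at 25.6 to 28.5 and 22.98 to 37.3 CPM at 2 weeks. Again the late controls lay above all other libraries. Ep400 and Srcap, which place H2A.Z, were not called (-0.09 ± 0.11 and -0.16 ± 0.28). Srcap shares 61.7% of its exon length with the annotated gene Gm42715 on the same strand, so its level, 3.36 to 4.87 CPM in late controls, is uncertain.

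Ruvbl1 and Ruvbl2 (Pontin and Reptin) form 1 ring of alternating subunits, but at 3 weeks their transcripts were called in opposite directions (with library size alone Ruvbl1 was at 0.36). Ruvbl1 was at 15.01, 14.5 and 17.5 CPM in late controls and 11.1, 12.04 and 10.9 CPM in late NICD1/Akt livers (-0.35 ± 0.12, adjusted p = 0.03), and Ruvbl2 at 15.9, 13.9 and 18.9 and 21.3, 25.8 and 23.7 CPM (0.66 ± 0.14, adjusted p = 0.0025). The log2 ratio of Ruvbl2 to Ruvbl1 was 0.08, -0.06 and 0.11 in the controls and 0.93, 1.10 and 1.123 in the NICD1/Akt livers, a mean difference of 1.01 without overlap. It was 0.44 ± 0.04 and 0.60 ± 0.35 at 2 weeks, with overlap. Ruvbl2 was also higher than in early controls (0.70 ± 0.19, adjusted p = 0.011). Of its exon length, 10.7% is shared with Gys1 on the opposite strand, which went from 1.08 to 2.07 CPM in the controls to 13.8 to 19.9 CPM in the NICD1/Akt livers of 3 weeks, and the part of Gys1 in the counts of Ruvbl2 was not tested.

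Smaller INO80 subunits differed among themselves. Ino80e and Ino80b were higher at 3 weeks (0.42 ± 0.11 and 0.55 ± 0.18, adjusted p = 0.0071 and 0.025). Ino80b was at 6.42 to 9.40 CPM in late controls, 8.69 to 11.4 CPM in late NICD1/Akt livers and 12.7 to 13.9 CPM in early controls, so that with all 6 controls its log2 fold change was -0.04 ± 0.28. Ino80d was not called at 3 weeks (0.19 ± 0.13, adjusted p = 0.23) and was higher at 3 than at 2 weeks in both groups, by 0.73 ± 0.15 between controls and 0.67 ± 0.15 between NICD1/Akt livers (adjusted p = 0.0038 and 0.0094). Ino80c was at -0.28 ± 0.13 at 3 weeks (adjusted p = 0.081).

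The ARID and MBD genes outside remodellers held the steepest decreases, with 6 of 8 lower and 1 higher at 3 weeks and a median log2 fold change of -0.54. Library size alone called 3 lower, all 6 controls 1, and the early controls in place of the late ones 0. Mbd1, whose product binds methylated CpG and recruits H3K9 methylation, was at 367, 333 and 318 CPM in the late controls and 63.2, 64.95 and 48.1 CPM in the late NICD1/Akt livers, a log2 fold change of -2.41 ± 0.14 (adjusted p = 2.5e-06). At 2 weeks it was at 68.9, 52.5 and 153 CPM in the controls, with replicate 32 the highest, and 79.6, 72.4 and 44.7 CPM in the NICD1/Akt livers. Its call held with all 6 controls (-1.87 ± 0.65, adjusted p = 0.039), but against the early controls alone the difference was -0.64 ± 0.35 (adjusted p = 0.14), and -0.05 ± 0.23 without replicate 32.

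Arid5b, an AT-rich DNA-binding factor that recruits the demethylase PHF2, was at 469, 283 and 482 CPM in the late controls and 96.9, 97.9 and 86.7 CPM in the late NICD1/Akt livers (-2.01 ± 0.20, adjusted p = 4.8e-05), with 109, 97.05 and 89.8 CPM in the early controls and 89.2, 67.03 and 48.98 CPM in the early NICD1/Akt livers. The late controls were the only high group. Arid5a, whose product stabilizes inflammatory mRNAs, was at 49.4, 25.9 and 35.5 and 11.3, 13.04 and 8.85 CPM in the same groups of 3 weeks (-1.61 ± 0.24, adjusted p = 0.00037). Its levels at 2 weeks were 2.73, 2.45 and 4.09 CPM in controls and 3.98, 3.92 and 7.67 CPM in NICD1/Akt livers, so that late NICD1/Akt livers lay below the late and above the early controls (by 1.84 ± 0.34 against the latter, adjusted p = 0.0015). Arid4a and Arid4b, which bind retinoblastoma protein, were lower at 3 weeks, with -0.52 ± 0.11 and -0.37 ± 0.11 (adjusted p = 0.0031 and 0.017). Arid3b was at -0.55 ± 0.20 and Mbd6 at -0.03 ± 0.09 (adjusted p = 0.035 and 0.76). Arid3a, chosen after its values were seen because it was the single member of these 8 called higher, was at 0.949, 1.04 and 1.75 and 2.24, 2.84 and 2.24 CPM (1.08 ± 0.30, adjusted p = 0.011).

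**Figure D3:**
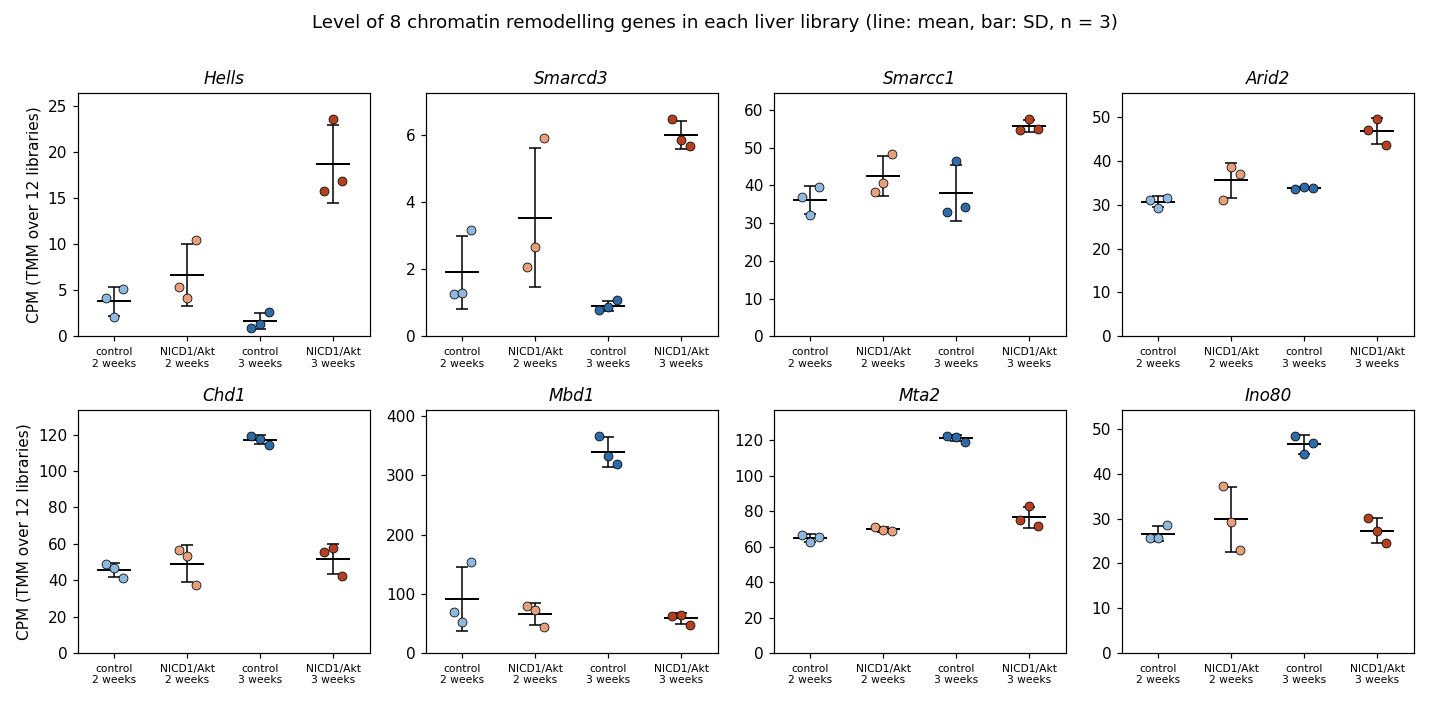
CPM (y axis, from 0) of 8 genes in each library of the 4 groups (x axis), with the mean as a line and the SD as a bar (n = 3). In the upper row Hells, Smarcd3, Smarcc1 and Arid2 have their highest mean in the NICD1/Akt livers of 3 weeks. In the lower row Chd1, Mbd1, Mta2 and Ino80 are high in the 3 controls of 3 weeks, while the other 9 libraries lie below them.

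Late controls were compared with early controls, both labelled as healthy liver. In the fit of all 12 libraries, 23 of the 65 genes were higher in the late than in the early controls and 4 were lower, with a median log2 fold change of 0.22. Without replicate 32 there were 18 higher and 4 lower (2134 and 2456 of all 14069 genes). Upper quartile factors gave 15 and 8 (1630 and 3946 of all 13829 genes). In the fit of all 12 libraries with TMM factors, 17.4% of the 13829 genes tested were called higher and 20.4% lower, with a median of -0.10. The ARID and MBD genes had 5 of 8 higher, NuRD 6 of 12 higher and 2 lower, and SWI/SNF 3 of 18 higher and 0 lower. The smallest adjusted p-values were those of Mta2 (0.90 ± 0.08, adjusted p = 3.6e-05), Arid5a (3.58 ± 0.35, 5.0e-05), Baz1a (1.41 ± 0.15, 8.9e-05), Arid5b (2.06 ± 0.24, 0.00013) and Chd1 (1.36 ± 0.16, 0.00014).

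This comparison and that at 3 weeks share the late controls, so their values are set side by side and are not independent. Between late and early controls the log2 fold changes of Mbd1, Rbbp4, Ino80 and Smarca5 were 1.89, 1.01, 0.81 and 0.92, and between late NICD1/Akt livers and late controls they were -2.41, -0.63, -0.65 and -0.32. The immediate early gene Egr1 was at 1104, 1225 and 1018 CPM in the late controls and at 70.3 to 116, 57.6 to 204 and 56.5 to 87.9 CPM in the early controls, early NICD1/Akt and late NICD1/Akt livers, and its part in these levels was not tested. With all 6 controls, 17 of 64 remodeller genes were higher and 4 lower at 3 weeks, against 24.5% and 25.7% of all genes, so the share called higher was near the background. Against the early controls in place of the late ones 24 of 65 were higher and 4 lower (21 and 5 without replicate 32), with the all-gene shares of these fits as given for SWI/SNF. Of these, 15 of the 24 higher and 0 of the 4 lower genes were called in the same direction against the late controls. That overlap was not counted over all genes, so it is not read as a trait of the remodeller genes. Mta2, Smarca5 and Arid5a, lower against the late controls, were higher against the early ones (Mta2 by 0.24 ± 0.08, adjusted p = 0.032, and by 0.23 ± 0.10, adjusted p = 0.069, without replicate 32), and Chd1l turned the opposite way. Rbbp4 was called higher without replicate 32 (0.44 ± 0.13, adjusted p = 0.014).

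At 2 weeks edgeR called 0 of 62 remodeller genes (0% of the 13041 genes tested in either direction), and the likelihood ratio test and DESeq2 also called 0 of them. At an unadjusted p under 0.05, 5 of 62 were past the threshold, all higher in NICD1/Akt livers (Arid3a, Baz1a, Gatad2b, Smarca5 and Smarcd1), against 8.59% of all genes tested. The median log2 fold change was 0.10. Leaving out replicate 32 also gave 0 calls.

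Smarcd1 was at 12.8, 11.5 and 12.7 CPM in control livers and 15.1, 18.4 and 20.9 CPM in the NICD1/Akt livers of 2 weeks (0.57 ± 0.17, adjusted p = 0.52), without overlap. Baz1a and Smarca5 had log2 fold changes of 0.57 ± 0.16 and 0.34 ± 0.11, and Gatad2b of 0.34 ± 0.10, each with an adjusted p of 0.52. These 4 genes were picked by an unadjusted p in this same comparison, so that their groups did not overlap adds no support. The share of all genes without overlap was not counted. The groups of 2 weeks overlapped in Hells (0.83 ± 0.47, adjusted p = 0.52), Smarcd3 (0.92 ± 0.57, 0.53) and Arid2 (0.22 ± 0.12, 0.52).

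A test of the difference between the stages, (NICD1/Akt against control at 3 weeks) minus the same at 2 weeks, called 3 remodeller genes higher and 14 lower of 65. Over all genes 15.0% were higher and 15.8% lower. The counts were 3 and 11 without control replicate 32, 2 and 8 without NICD1/Akt replicate 33 of 2 weeks and 5 and 18 without replicate 35. Over all genes these fits called 1423 and 1528 of 14069, 1203 and 1201 of 14004, and 3307 and 3494 of 13948. With library size alone 20 were higher and 3 lower, and with upper quartile factors 9 and 8. Of all 13829 genes, library size alone called 3520 higher and 297 lower, and upper quartile factors 2633 and 1124. They moved the all-gene median by 0.61 and 0.22. The 3 higher were Mta3 (0.67 ± 0.15, adjusted p = 0.011), Hells and Pbrm1 (0.53 ± 0.16, adjusted p = 0.029). Mta2 (-0.77 ± 0.12, adjusted p = 0.0024), Chd1 (-1.28 ± 0.23, 0.0045), Arid5a (-2.51 ± 0.46, 0.0053), Smarca5 (-0.77 ± 0.15, 0.0077) and Arid5b (-1.60 ± 0.33, 0.0086) had the smallest adjusted p-values. Of the 18 SWI/SNF genes, Pbrm1 was higher and Phf10 lower by this test, and the other 16, Smarcc1 (0.32 ± 0.20, adjusted p = 0.23) and Smarcd3 (1.79 ± 0.64, 0.054) among them, were not shown to differ between stages.

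Between NICD1/Akt livers of 3 and 2 weeks 11 of 65 genes were higher and 4 lower, against 11.1% and 17.4% of all genes. The median was 0.15. Library size alone gave 37 higher and 1 lower, against 3435 higher and 940 lower of all 13829 genes tested. That fit moved the all-gene median by 0.43. Chd3, Chd6, Arid1a, Smarcd2 and Ino80d had the smallest adjusted p-values. Arid1a rose from 77.97, 91.2 and 84.9 to 117, 121 and 117 CPM (0.49 ± 0.11, adjusted p = 0.0081) and Chd6 by 0.53 ± 0.11 (adjusted p = 0.0073), while Smarcd2 went from 78.96, 91.96 and 63.1 to 50.2, 41.4 and 54.1 CPM (-0.68 ± 0.15, adjusted p = 0.0081). Replicate 35 was nearest to the late livers in Smarcd2, Hells, Smarcd3 and Chd5. Without it 16 remodeller genes were higher and 5 lower, against 3125 and 3564 of all 13948 genes tested.

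**Figure D4:**
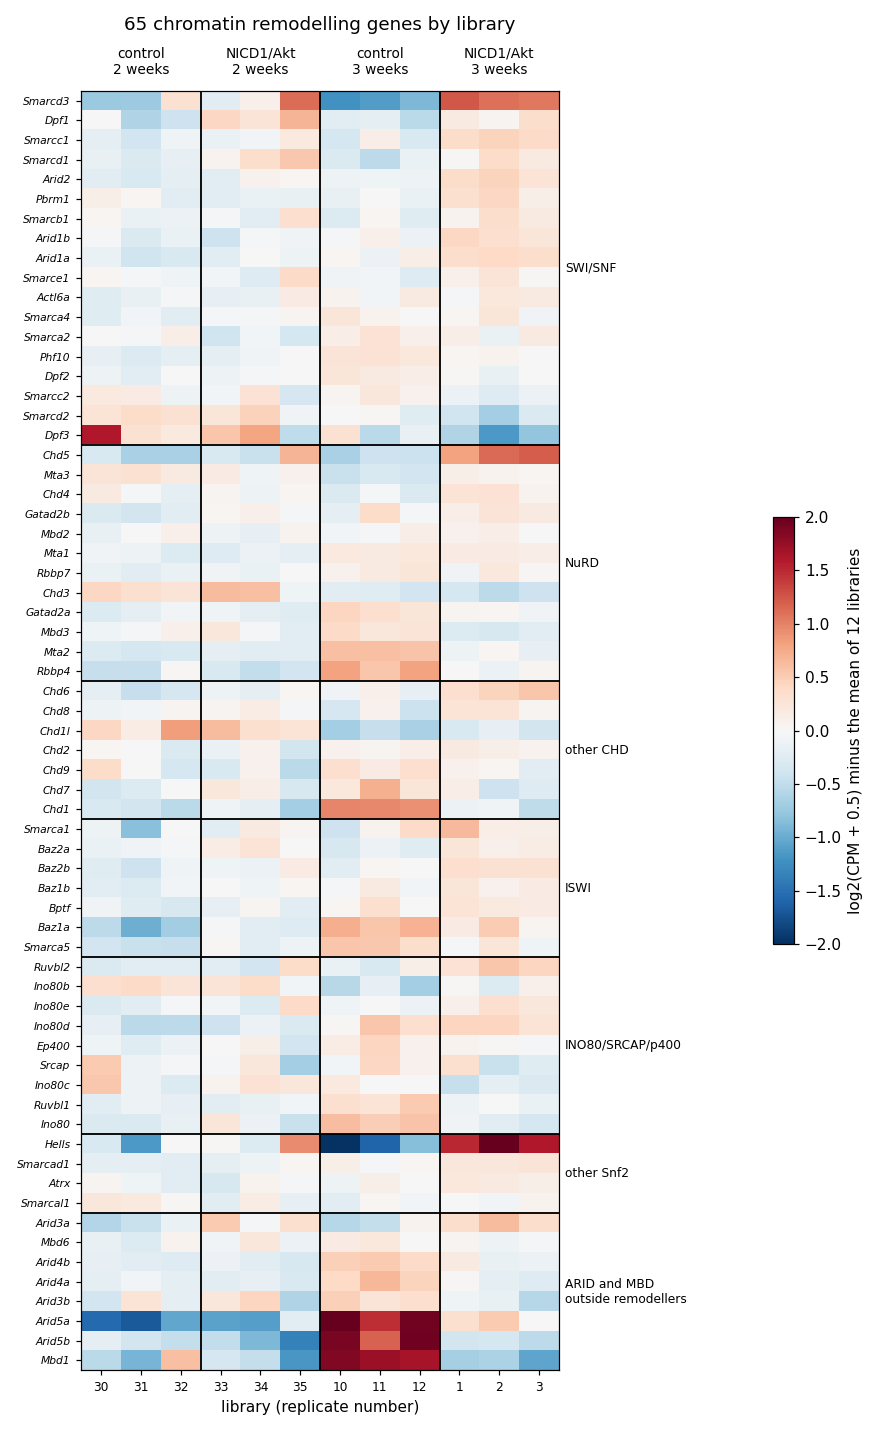
Each row is 1 of the 65 genes and each column 1 library, grouped by condition (replicate numbers on the x axis). Colour gives log2(CPM + 0.5) minus the mean of the 12 libraries, with values beyond 2 in either direction shown at the end of the scale. The controls of 3 weeks are red in Arid5a, Arid5b, Mbd1 and Chd1, and the NICD1/Akt livers of 3 weeks in Smarcd3, Chd5 and Hells, where replicate 35 of 2 weeks is red as well.

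Compared per kilobase of exon, some ATPases kept their rank in all groups and others changed it. Chd4 was first in each group (18.2, 18.2, 15.9 and 21.2 CPM per kb in early controls, early NICD1/Akt, late controls and late NICD1/Akt livers). Smarca4 ranked 3 at 2 weeks and 2 at 3 weeks (14.1 and 13.8 CPM per kb in late controls and late NICD1/Akt livers), above Smarca2 (8.73 and 8.12). Chd1 ranked 3 of 21 in late controls (13.4 CPM per kb) and 6, 6 and 7 in the other groups (5.22, 5.63 and 5.93). In early controls, early NICD1/Akt, late controls and late NICD1/Akt livers Chd1l ranked 7, 8, 14 and 12. In the same order Chd3 ranked 2, 2, 4 and 3, and Chd7 14, 13, 11 and 16. Hells ranked 19 of 21 in late controls (0.232 CPM per kb) and 13 in late NICD1/Akt livers (2.60), between the levels of Chd6 (2.497) and Chd1l (2.78). Smarca1 and Chd5 were last in every group. Lengths are of the union of annotated exons, so levels per kb depend on the annotated isoforms.

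Partners that the symbol pattern did not take were read out in the same fits. Of 52 tested at 3 weeks, 22 were higher and 11 lower, against 38.9% and 33.1% of all genes tested. For SWI/SNF 5 of 10 were higher and 1 lower. Bcl7a rose by 1.45 ± 0.19 and the GBAF subunits Bicra and Brd9 by 1.07 ± 0.21 and 0.65 ± 0.13 (adjusted p = 0.00019, 0.002 and 0.0018). Among NuRD partners, the deacetylases Hdac1 and Hdac2 rose by 0.46 ± 0.13 and 0.78 ± 0.09 (adjusted p = 0.012 and 0.00012) and the cofactor Zmynd8 by 1.29 ± 0.09 (adjusted p = 5.6e-06), with 3 of 5 higher and 1 lower. The INO80, SRCAP and p400 partners were even, with 8 of 24 higher and 8 lower. Both H2A.Z genes were among the former: H2afz was at 23.03, 19.2 and 23.3 CPM in late controls and 43.3, 48.9 and 49.4 CPM in late NICD1/Akt livers (1.23 ± 0.11, adjusted p = 2.1e-05), and H2afv changed by 0.68 ± 0.08 (adjusted p = 0.00013). The SRCAP subunits Vps72, a chaperone of H2A.Z, and Znhit1 moved apart (0.84 ± 0.11 and -0.74 ± 0.10, adjusted p = 0.00022 and 0.00026). ISWI partners had 2 of 5 higher and 0 lower. Those of the other ATPases had 4 of 8 higher and 1 lower, with the FACT subunit Ssrp1 at 0.66 ± 0.10 (adjusted p = 0.0005). Bcl7a, Bicra, Zmynd8 and Vps72 were lower in late than in early controls (-0.70, -0.74, -0.95 and -0.52, adjusted p = 0.012, 0.015, 0.00023 and 0.012). In that comparison 4 of the 52 partners were higher and 12 lower, against 17.4% and 20.4% of all genes. Between late and early NICD1/Akt livers Bcl7a, Bicra, Zmynd8 and Vps72 did not pass the test. The part of the late controls in their rise at 3 weeks was not tested.

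Marker lists of other cells moved with the same contrast. At 3 weeks 4 of 6 leukocyte markers tested were higher and 0 lower, with a summed level of 59.8 to 84.4 CPM in the controls and 110 to 134 CPM in the NICD1/Akt livers, and 4 of 8 markers of stroma and endothelium were higher and 1 (Stab2) lower, with sums of 334 to 430 and 2539 to 3402 CPM. The biliary list summed to 92.9 to 135 and 3502 to 4122 CPM, with Cftr at 0 in 1 and Cldn4 at 0 in 2 late controls, and the hepatocyte list to 103800 to 107370 and 24985 to 38282 CPM. Their part in the changes of the remodeller genes was not tested.

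Of the 40 calls at 3 weeks 32 held when each library was left out in turn. The other 8 were those of Dpf1 (lost without any of 5 libraries, log2 fold change 0.93 to 1.37 over the 6 fits), Baz1b (4 libraries, 0.20 to 0.32), Chd7 (4, -0.64 to -0.28), Ino80b (4, 0.43 to 0.71), Smarca5 (4, -0.43 to -0.25), Arid3b (3, -0.65 to -0.42), Atrx (3, 0.22 to 0.33) and Ruvbl1 (3, -0.41 to -0.27). None changed direction. Leaving out NICD1/Akt replicate 3 took the call from 7 of these 8 (from all but Atrx) and control replicate 12 also from 7 (from all but Smarca5). Control replicate 10 took it from Dpf1, Baz1b, Ino80b, Smarca5, Arid3b and Atrx, and NICD1/Akt replicate 1 from Dpf1, Baz1b, Ino80b, Smarca5, Atrx and Ruvbl1. Control replicate 11 took it from Dpf1, Chd7 and Smarca5, and NICD1/Akt replicate 2 from Chd7. Among the 65 genes, 11 share exon bases with another gene, 10 of them on the opposite strand, and the counting strand is not given in the sources used here.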

How the data were processed

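RNA-seq was done on liver RNA in 12 libraries. The authors deposited raw counts per gene as whole numbers in 1 table per stage, with replicates not pooled. Their methods name TrimGalore, Cutadapt, STAR (aligned to mm10) and HTSeq, while the submitters' processing notes name STAR 2.7, Subread 2.0.6 and GRCm39, so build and counter are not settled and no gene coordinates are given from the files. The library kit kept strand, but the strand setting of the counting is not given in the sources used here. Of 21807 gene IDs, 21621 matched a GENCODE M21 symbol.

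Counts were tested as deposited with edgeR 4.0.16 (R 4.3.3): TMM factors, filterByExpr, glmQLFit and glmQLFTest, with Benjamini-Hochberg adjustment over all genes tested and a threshold of 0.05. The comparisons at 3 weeks and at 2 weeks used the 6 libraries of that stage, and the difference between stages and both comparisons across stages used 1 fit of all 12 libraries. Comparisons across stages set separately deposited tables side by side. The labels do not say more of the replicates than that they are separate samples, so p-values cover only the spread among these libraries, which may be technical. Paralog ratios were log2((count a + 0.5)/(count b + 0.5)). Alternatives were the likelihood ratio test, DESeq2 1.42.0, upper quartile factors, library size only, genes of low counts kept, each library left out, other sets of controls and an added count of 5 in the ratios. The test was checked on simulated data of the comparison at 3 weeks (13260 genes), in which it recovered 70% of 100 genes changed 2-fold and 15.5% of 97 changed 1.5-fold. Few genes were changed there, whereas most genes were called in the data. The adjustment was therefore stricter in the simulation, and these rates do not give the power at 3 weeks. No pair of replicates of the same group had counts within sampling noise of each other, and pairs across groups were not checked.

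The genes and lists were chosen with earlier results of these data known. Named genes were Chd1, Smarcc1 and Hells, all Snf2 ATPases, up to 4 further genes of each complex with the smallest adjusted p at 3 weeks, paralogs whose ratios did not overlap between groups at 3 weeks, and up to 5 genes with the smallest adjusted p in each comparison across stages. Genes outside this rule (among them Phf10, Dpf2, Actl6a, Bptf, Ino80c, Ino80d, Arid3a, Arid3b, Arid4b and Mbd6) were named after their values were seen, to account for the members of each complex.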

Additional observations from a re-analysis of the deposited data

Results flagged for a closer look

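For 17 of the 65 remodeller genes the change from control to NICD1/Akt livers at 3 weeks differed from that at 2 weeks by edgeR's test of the difference itself (adjusted p under 0.05). It was larger at 3 weeks for Hells (2.653 on the log2 scale), Mta3 (0.6705) and Pbrm1 (0.5299). For the ARID and MBD genes the differences were -2.508 for Arid5a, -2.049 for Mbd1, -1.603 for Arid5b, -0.5537 for Arid4a and -0.493 for Arid4b. Those of NuRD were -0.7688 for Mta2, -0.6346 for Rbbp4 and -0.5645 for Mbd3. Chd1 was at -1.285, and the ISWI genes Baz1a and Smarca5 were at -0.9699 and -0.7681. Ino80 and Ruvbl1 were at -0.9342 and -0.4905, and Phf10 was at -0.358. In all 14 genes with a difference below 0 the 3 late controls lay above the other 9 libraries. High late controls lower this difference, so their place in genes picked by it adds no support. Among all 65 remodeller genes the late controls lay above the other 9 libraries in 17, and the share of all genes was not counted. The part of the late controls in the differences was not tested.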

How the results depend on the processing

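At 3 weeks the 26 higher and 14 lower genes became 52 and 4 with library size only, of which 17 higher genes were SWI/SNF and 3 lower genes ARID or MBD. Upper quartile factors left 9 lower. All 6 controls gave 17 higher and 4 lower, with 1 lower ARID or MBD gene. The early controls in place of the late ones, an alternative added after the data were seen, gave 4 lower and 0 lower ARID or MBD genes, and without replicate 32 they gave 5 lower, 0 lower ARID or MBD and 5 higher SWI/SNF genes. For the difference between stages DESeq2 called 5 higher, library size only 20 higher and 3 lower, and upper quartile factors 9 and 8. Over all 13829 genes these fits called 2707 higher, 3520 higher and 297 lower, and 2633 and 1124. Leaving out 1 library gave 2 to 5 higher and 8 to 18 lower. Between controls library size only called 12 higher, and upper quartile factors 15 higher and 8 lower, with 4 to 7 lower when 1 library was left out. Over all 13829 genes library size only called 1285 higher, and upper quartile factors 1630 higher and 3946 lower. Between NICD1/Akt livers DESeq2 called 20 higher and library size only 37 higher and 1 lower, and leaving out 1 library gave 5 to 16 higher and 2 to 5 lower. Over all 13829 genes DESeq2 called 2103 higher and library size only 3435 higher and 940 lower. Under library size only, log2 fold changes at 3 weeks turned to 0.1839 for Arid4a, 0.6184 for Ep400, 0.05373 for Ino80, 0.3604 for Ruvbl1, 0.4273 for Baz1a, 0.3979 for Smarca5, 0.6785 for Chd3, 0.4926 for Gatad2a, 0.2628 for Mbd3, 0.1653 for Mta2, 0.07499 for Rbbp4, 0.2473 for Chd7, 0.5172 for Chd9, 0.5446 for Smarcc2 and 0.4325 for Smarcd2, in a fit that moved the median of all genes by 0.70. With all 6 controls Ino80b was at -0.03589 and Chd1l at -0.3389, and the cause was not tested.

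Of the other alternatives, 152 left a count of calls within 1.5 times, and 554 left a named gene's direction and side of the threshold unchanged, while in 49 a named gene lost its call and in 23 gained one. No paralog ratio whose groups did not overlap changed direction, and none moved by more than its spread. Where the groups overlapped, the direction could depend on a single library. This held for Smarca4/Smarca2 and Arid1b/Arid1a at 3 weeks, with differences of 0.07 and 0.01 over all libraries, so no direction is drawn from them. No paired analysis was possible because the groups share no replicate numbers. With 3 libraries a group, changes under 2-fold can be missed, although many were called at 3 weeks. Chd5, Dpf1, Dpf3, Smarca1 and Arid3a rest on few counts, as does Cdca7l in the late controls. Stage, table and sex cannot be told apart across stages.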
